A study of Mus musculus with 20 samples.

Results

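A pair of gene families for membrane pumps was followed in the mouse cochlea, the Atp1b genes, which encode the beta subunits of the sodium pump (Na,K-ATPase), and the Atp2b genes, which encode the plasma membrane calcium pumps (PMCAs). The 7 genes were chosen by name: Atp1b1, Atp1b2, Atp1b3, Atp2b1, Atp2b2, Atp2b3 and Atp2b4. They are 7 of the 24411 genes that the files have in common, and all 7 passed the filters on low values in every comparison.

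The study asked what the loss of Bai1 (Adgrb1), an adhesion G-protein-coupled receptor, does to hearing and to gene expression in the cochlea. Homozygous Bai1tm2b/tm2b mice were compared with heterozygous Bai1tm2b/+ controls at postnatal day 7 (P7), before the onset of hearing, and at P22, after it. The tm2b allele lacks exons 3 and 4 of Adgrb1 and carries a lacZ reporter cassette. The paper concluded that homozygotes lose the long isoform of Bai1 and that a short isoform is still expressed. Every mouse in both groups had at least 1 mutant allele, and no wild-type group was measured. Each library was made with poly A enrichment from the sensory epithelium and spiral ganglion neurons of 4 mice combined, so that 1 sample is 1 pool. There were 3 libraries per genotype at P22 (replicates 1 to 3) and 7 per genotype at P7, in separate batches of 4 (replicates 1 to 4) and 3 (replicates 5 to 7).

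The sodium pump moves sodium out of the cell and potassium in, at the cost of ATP. Its catalytic alpha subunit needs a beta subunit to fold and to reach the membrane, and in the cochlea the pump restores ionic gradients in firing neurons and feeds potassium into the endolymph through the marginal cells of the stria vascularis. PMCAs export calcium from the cytosol: Atp2b1 (PMCA1) is the broadly expressed form, Atp2b2 (PMCA2) is the pump of the hair cell stereocilia and is also found in neurons, and mice that lack it are deaf. Atp2b3 (PMCA3) is mainly neuronal, and Atp2b4 (PMCA4) is expressed widely, including in sperm and red blood cells.

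The P22 libraries and P7 replicates 5 to 7 were deposited as estimated read counts, with 31108551 to 58807173 reads assigned to genes per library. P7 replicates 1 to 4 were deposited as whole numbers that sum to 999644 to 999777, which behave as length-scaled transcript abundances (TPM), so their depth is unknown. For the 12 libraries in counts, levels are in CPM, which sets each count against the total of its library, on 1 scale for both ages. For the other 8 they are in TPM, and no level was compared between the scales. Orders of genes, shares of a family and genotype differences were each taken within a scale and then set side by side. Adgrb1 itself, counted over the whole gene, was at 152 to 167 CPM in Bai1tm2b/+ and 100 to 105 CPM in Bai1tm2b/tm2b at P22, and at P7 in counts at 32.1 to 56.4 against 21.6 to 31.2 CPM. The genotypes overlapped in the P7 libraries in TPM, with 7.68 to 12 against 8.59 to 11.2. All 11 neuronal, 10 hair cell and 8 supporting cell markers were detected in each set and genotype, and so were markers of the stria vascularis, myelinating glia, bone and central glia.

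The promoters of 5 of the 7 genes were matched by symbol in the RefSeq annotation of GRCm38.p6. They have 9 windows of the 250 bases before an annotated start, of which 4 are shown, for 2 genes that rose and 2 that fell between the ages, 5′ to 3′ on the strand of the gene. Capitals mark GC boxes (GGGCGG, or CCGCCC on the other strand) and CCAAT boxes (CCAAT, or ATTGG).
Atp1b1, chr1:164458356-164458605, minus strand: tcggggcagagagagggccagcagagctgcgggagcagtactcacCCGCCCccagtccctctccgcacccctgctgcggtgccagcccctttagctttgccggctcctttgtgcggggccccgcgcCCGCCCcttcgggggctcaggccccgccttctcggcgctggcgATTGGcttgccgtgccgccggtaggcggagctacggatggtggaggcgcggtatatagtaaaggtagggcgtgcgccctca
Atp2b2, chr6:114042081-114042330, minus strand: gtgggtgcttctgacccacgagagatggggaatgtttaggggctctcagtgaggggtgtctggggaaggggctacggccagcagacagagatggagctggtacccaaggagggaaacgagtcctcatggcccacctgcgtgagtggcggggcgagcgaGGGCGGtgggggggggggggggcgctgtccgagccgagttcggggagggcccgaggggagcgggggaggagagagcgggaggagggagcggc
Atp2b1, chr10:98914392-98914641, plus strand: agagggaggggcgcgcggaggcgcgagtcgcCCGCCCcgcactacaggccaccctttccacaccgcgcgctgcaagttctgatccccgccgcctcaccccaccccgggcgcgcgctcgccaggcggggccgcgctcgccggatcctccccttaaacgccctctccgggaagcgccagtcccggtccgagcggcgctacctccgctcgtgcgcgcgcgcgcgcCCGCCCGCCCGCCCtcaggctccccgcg
Atp2b4, chr1:133753748-133753997, minus strand: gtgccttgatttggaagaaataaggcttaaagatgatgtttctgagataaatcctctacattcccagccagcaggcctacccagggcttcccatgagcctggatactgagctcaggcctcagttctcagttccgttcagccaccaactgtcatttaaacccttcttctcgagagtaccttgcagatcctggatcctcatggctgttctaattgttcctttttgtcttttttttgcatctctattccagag

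Atp1b1 had 2 GC boxes and 1 CCAAT box, Atp2b2 had 1 GC box, and Atp2b1 had 4 GC boxes, of which 3 overlap one another. None was found before this start of Atp2b4. By the gene bounds given below, the windows shown for Atp2b4 and Atp2b2 lie inside the gene. That of Atp2b1 lies mostly inside, and that of Atp1b1 lies before its gene. Of 32851 RefSeq promoters of the same length, 32.7% held a GC box and 33.8% a CCAAT box on either strand. The E-box CACGTG, held by 6.02% of all promoters, was in 1 of the 9 windows, that of Atp1b3 at chr9:96363716-96363965, a gene that rose with age. The core promoter element TATAAA, held by 12.4%, and the cAMP response element TGACGTCA, held by 1.55%, were in 0 of the 9 on either strand. The bases were 70.4%, 69.6% and 78.4% G or C for Atp1b1, Atp2b2 and Atp2b1 and 45.6% for Atp2b4, where the median of all promoters was 52.4%. The genes that fell with age had both the richest and the poorest of the 4 windows in G and C. Of the windows not shown, those of Atp1b3 were 73.6% G or C with 5 GC boxes and 76.8% with 0, the second of Atp2b1 was 80.8% with 3, and the others of Atp2b2 were 52.0% with 0 and 55.6% with 1. Atp2b2 has other annotated starts within the gene, and values per gene do not tell which start was used.

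Between P7 and P22 the pump genes moved in both directions. Atp2b3, Atp1b1, Atp2b2 and Atp1b3 rose, Atp2b1 and Atp2b4 fell, and the level of Atp1b2 did not pass the test. The libraries of the ages were also separate batches, so age and batch cannot be told apart. As these are bulk samples, fewer cells of a type and less RNA per cell cannot be told apart either. The plot of levels by library shows each gene at both ages.

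**Figure D1:**
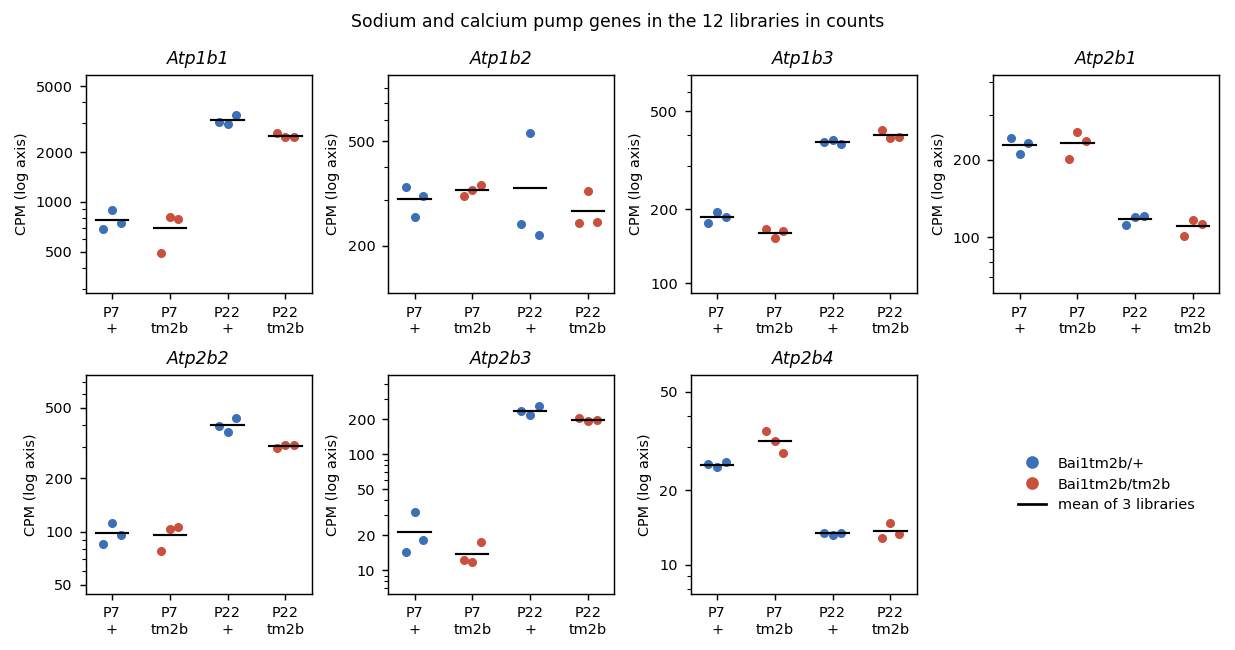
Level of each pump gene in the 12 libraries in counts, in CPM on a log axis, for P7 replicates 5 to 7 and P22 replicates 1 to 3 of Bai1tm2b/+ (blue) and Bai1tm2b/tm2b (red), with 1 point per library and a line at the mean of 3. The ages do not overlap for any gene but Atp1b2, where Bai1tm2b/+ replicate 2 at P22 stands at 536 CPM.

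Atp2b3 (ENSMUSG00000031376.15, chrX:73503086-73571005, mm10), the neuronal calcium pump, showed the widest change of the 7. At P7 its level was 14.4, 31.7 and 18.4 CPM in Bai1tm2b/+ and 12.3, 11.7 and 17.4 CPM in Bai1tm2b/tm2b. At P22 it was 238, 216 and 259 CPM and 206, 193 and 198 CPM. The highest P7 library was thus far below the lowest P22 library, and the gene was 12.6-fold higher at P22 (log2 fold change 3.65, SE 0.176, edgeR adjusted p = 1.02e-09).

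Atp1b1 (ENSMUSG00000026576.12, chr1:164437109-164458355), the beta subunit found with the pump in most tissues, had the highest level per kilobase of exon of the 7 in every library. Its P7 levels were 682, 895 and 744 CPM in Bai1tm2b/+ and 494, 813 and 789 CPM in Bai1tm2b/tm2b. Its P22 levels were 3026, 2943 and 3334 CPM and 2588, 2478 and 2480 CPM. Each P22 library was above each P7 library, a 3.80-fold rise (log2 fold change 1.93, SE 0.123, edgeR adjusted p = 1.20e-08). Of its exon bases, 18.7% also belong to Nme7 on the opposite strand, and whether the counting used strand is not given in the sources used here.

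Atp2b2 (ENSMUSG00000030302.16, chr6:113743831-114042613) was at 84.8, 112 and 96.0 CPM in Bai1tm2b/+ and 77.8, 104 and 106 CPM in Bai1tm2b/tm2b at P7. At P22 it was at 395, 366 and 440 CPM and 295, 307 and 310 CPM. The rise was 3.61-fold with no overlap between the ages (log2 fold change 1.85, SE 0.0920, edgeR adjusted p = 1.32e-09). Atp1b3 (ENSMUSG00000032412.8, chr9:96332655-96364442), a beta subunit of many non-neuronal as well as neuronal cells, rose 2.24-fold, from 153 to 195 CPM over the 6 P7 libraries to 368 to 419 CPM over the 6 P22 libraries (log2 fold change 1.17, SE 0.0486, edgeR adjusted p = 3.33e-10).

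The broadly expressed calcium pump Atp2b1 (ENSMUSG00000019943.10, chr10:98914406-99026143) went the other way. Its P7 levels were 243, 210 and 233 CPM in Bai1tm2b/+ and 202, 256 and 238 CPM in Bai1tm2b/tm2b, and its P22 levels were 111, 120 and 121 CPM and 101, 116 and 113 CPM. It was 2.03-fold lower at P22 (log2 fold change -1.02, SE 0.0670, edgeR adjusted p = 1.60e-08). Atp2b4 (ENSMUSG00000026463.17, chr1:133699457-133801041), the calcium pump gene with the lowest level per kilobase, was 2.10-fold lower, with 24.8 to 34.9 CPM at P7 and 12.8 to 14.8 CPM at P22 (log2 fold change -1.07, SE 0.0619, edgeR adjusted p = 4.95e-09). The ages did not overlap for either gene.

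Atp1b2 (ENSMUSG00000041329.13, chr11:69599736-69605942), a beta subunit of glia that is also known as an adhesion molecule, ranged from 258 to 340 CPM at P7 and from 221 to 536 CPM at P22. Its log2 fold change was -0.06 (SE 0.189, edgeR adjusted p = 0.784). Single P22 control libraries moved it: without Bai1tm2b/+ replicate 2 the difference was -0.32 (edgeR adjusted p = 0.00782), and without replicate 1 or 3 it was 0.0362 or 0.0551.

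With age, 4 of the 7 genes rose and 2 fell past an adjusted p of 0.05, where 38.2% and 42% of the 16314 genes tested did so. All 6 also passed the stricter rule, which asks in addition for a log2 fold change over 0.5 in size with an SE under 0.5, as did 25.9% of all genes upwards and 28.7% downwards. The levels of the ages did not overlap for those 6 genes and for 62.6% of all genes, so most genes differed between these sets. The median log2 fold change was 1.17 over the 7 genes and -0.05 over all genes. Within each genotype the 6 changes had the same sign, for example 3.46 in Bai1tm2b/+ and 3.85 in Bai1tm2b/tm2b for Atp2b3.

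The make-up of the tissue differed between the ages too. The summed level of the 11 neuronal markers was 1049 to 2795 CPM at P7 and 11391 to 17601 CPM at P22, and 10 of the 11 rose and 1 fell. Myelinating glia markers summed to 4317 to 14057 CPM at P7 and 16571 to 19056 CPM at P22, and all 7 rose. Supporting cell markers went from 5562 to 10533 CPM at P7 to 1010 to 1280 CPM at P22, with 6 of 8 lower and 2 higher. Hair cell markers summed to 354 to 608 CPM at P7 and 237 to 384 CPM at P22, ranges that overlap. Of these 10 markers, 6 were lower and 2 higher, whereas Atp2b2, also a hair cell gene, rose. Bone markers went from 803 to 1993 CPM to 171 to 469 CPM, with all 6 lower, as Atp2b1 and Atp2b4 were. Libraries were also scaled to the geometric mean of the 11 neuronal markers, in which each marker weighs the same. This moved the median of all genes to -2.43. On that scale Atp2b3 was still 1.37 higher on the log2 scale. Atp1b1, Atp2b2 and Atp1b3 were at -0.41, -0.49 and -1.21, past the threshold as falls (edgeR adjusted p = 0.0266, 0.0121 and 5.14e-07). Atp1b2 fell as well, at -2.45 (edgeR adjusted p = 1.69e-11), close to the median of all genes. The share of all genes that fell on that scale was not counted. The part of the neuronal share in these changes beyond this rescaling, and that of the other cell types, was not tested.

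Among 12 partners of the sodium pump, its other subunits and the FXYD regulators that adjust its affinity for ions, 9 were tested, 7 rose and 2 fell with age. Of these, Fxyd2 rose by 3.74, Fxyd6 by 1.32 and Fxyd1 by 1.28 on the log2 scale (edgeR adjusted p = 5.43e-10, 1.91e-09 and 2.55e-09). Among 20 genes of calcium extrusion, calcium stores and calcium buffering, 19 were tested, 7 rose and 6 fell. Slc24a2, a potassium-dependent sodium-calcium exchanger of neurons, rose by 3.55, and the calcium-binding protein calretinin, Calb2, rose by 4.56 (edgeR adjusted p = 1.25e-09 and 8.56e-09). The medians were 1.09 over the sodium pump partners and -0.03 over the calcium genes.

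The balance between the members of each family differed between the ages. To set genes of unlike length side by side, CPM was divided by the length of the exons of each gene in kilobases and expressed as a share of the family total in each library. At P7 in counts the order of these per-kilobase levels in Bai1tm2b/+ was Atp1b1 (251 ± 35.7), Atp1b3 (77.5 ± 3.88), Atp1b2 (73.7 ± 9.66), Atp2b1 (15 ± 1.09), Atp2b2 (7.74 ± 1.09), Atp2b3 (4.46 ± 1.88) and Atp2b4 (2.08 ± 0.0488), each as mean ± SD over 3 libraries. Atp1b3 and Atp1b2 differed by less than their spread. The TPM libraries gave the same order for the means of Bai1tm2b/+, from 608 ± 75.4 TPM for Atp1b1 down to 5.95 ± 0.751 for Atp2b3 and 5.45 ± 0.446 for Atp2b4 (SD, n = 4), and there the last neighbours differed by less than their spread. At P22 the order in Bai1tm2b/+ was Atp1b1 (1007 ± 66.8), Atp1b3 (157 ± 2.65), Atp1b2 (81.5 ± 43.2), Atp2b3 (49.3 ± 4.45), Atp2b2 (31.7 ± 2.97), Atp2b1 (7.72 ± 0.353) and Atp2b4 (1.09 ± 0.0105), where Atp1b2 and Atp2b3 differed by less than the spread of Atp1b2.

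Among the calcium pumps, Atp2b1 held the largest share at P7 and Atp2b3 the largest at P22. The share of Atp2b1 was 52.7% ± 4.63 at P7 and 9.21% ± 0.945 at P22, and that of Atp2b3 was 12.6% ± 4.49 and 55.4% ± 1.32 (SD, n = 6 libraries per age). Atp2b2 took 26.5% ± 1.72 and 34.0% ± 1.55 and Atp2b4 8.18% ± 1.75 and 1.37% ± 0.186. None of these shares overlapped between the ages, as the plot of family shares shows, and the exact permutation test gave p = 0.00216 for each, the smallest that 6 against 6 libraries allow (two-sided, Benjamini-Hochberg adjusted over 7 genes p = 0.00253). The libraries in TPM at P7, which the test did not use, had Atp2b1 at 57.2% and 54.0%, Atp2b2 at 27.1% and 30.0%, Atp2b3 at 8.16% and 9.16% and Atp2b4 at 7.53% and 6.82% in Bai1tm2b/+ and Bai1tm2b/tm2b. The length chosen bears on the sizes: with the longest transcript in place of all exons, Atp2b3 held 45.4% and Atp2b2 38.0% at P22, and the rise of Atp2b2 in share was 16.0 instead of 7.44 percentage points.

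**Figure D2:**
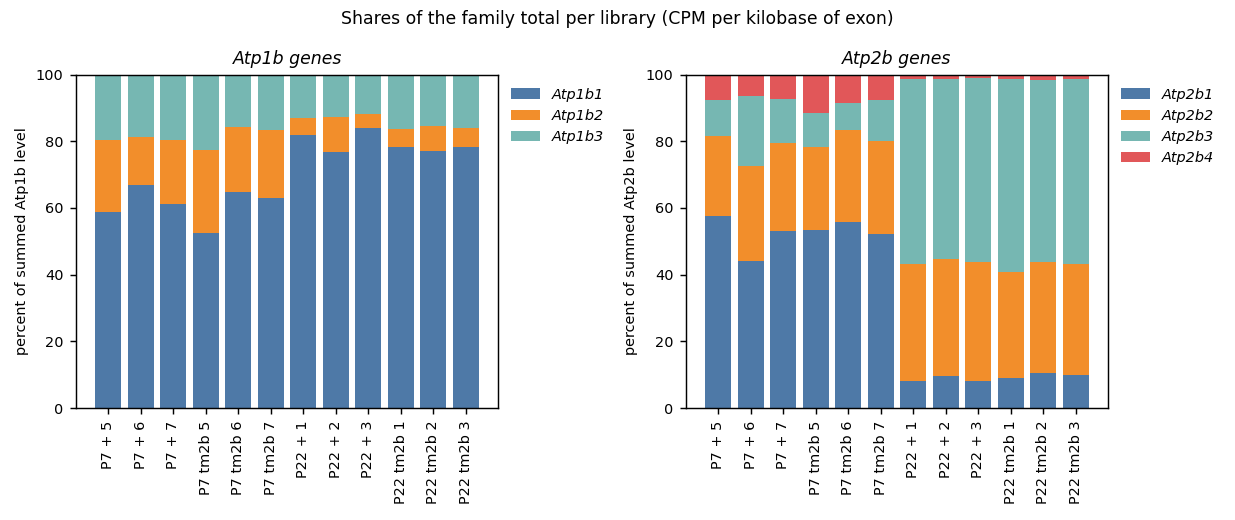
Share of each gene in the summed per-kilobase level of its family, in percent, as 1 stacked bar per library for P7 replicates 5 to 7 and P22 replicates 1 to 3 (+, Bai1tm2b/+; tm2b, Bai1tm2b/tm2b). Atp2b1 fills 44.2% to 57.5% of the Atp2b bar at P7 and 8.13% to 10.5% at P22, where Atp2b3 fills 54.1% to 57.9%.

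Among the sodium pump beta subunits, Atp1b1 was the largest at both ages. Its share was 61.1% ± 5.10 at P7 and 79.3% ± 2.94 at P22, while that of Atp1b2 was 20.1% ± 3.40 and 6.44% ± 2.30 (exact permutation p = 0.00216 for both). Atp1b3 took 18.8% ± 2.49 and 14.3% ± 1.86, with ranges that overlapped (exact permutation p = 0.00649, which the adjustment left as it was). The level of Atp1b3 rose while its share fell, since Atp1b1 rose more. In the P7 libraries in TPM the shares were 56.6% and 58.8% for Atp1b1, 15.5% and 15.9% for Atp1b2 and 27.8% and 25.3% for Atp1b3 in Bai1tm2b/+ and Bai1tm2b/tm2b, so that Atp1b3 stood clear of Atp1b2 there and not in counts.

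At P22, 3 of the 7 genes were lower in Bai1tm2b/tm2b than in Bai1tm2b/+ past an adjusted p of 0.05, and 0 were higher. These were Atp2b2, Atp1b1 and Atp2b3. Across all 15443 genes tested, 7.28% were lower and 5.04% higher by this rule. None of the 3 reached a log2 fold change of 0.5 in size, so 0 of the 7 passed the stricter rule, which 1.41% of genes passed downwards and 1.74% upwards. The median log2 fold change was -0.25 over the 7 genes and 0.01 over all genes.

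Atp2b2, at 395, 366 and 440 CPM in Bai1tm2b/+ and 295, 307 and 310 CPM in Bai1tm2b/tm2b, was 0.763 times as high in the homozygotes (log2 fold change -0.39, SE 0.0704, edgeR adjusted p = 0.00768). The lowest control library was above the highest homozygous one, and the call held when any 1 library was left out. Atp1b1 was 0.815 times as high, with all 3 Bai1tm2b/tm2b libraries below all 3 controls (log2 fold change -0.29, SE 0.0686, edgeR adjusted p = 0.0212). Its adjusted p stayed under 0.05 in 4 of the 6 fits that left out a library. Atp2b3, with 238, 216 and 259 CPM against 206, 193 and 198 CPM, was 0.841 times as high and did not overlap between genotypes (log2 fold change -0.25, SE 0.0698, edgeR adjusted p = 0.0424). That call was close to the threshold and held in 1 of the 6 such fits, with adjusted p from 0.0111 to 0.133. Without Bai1tm2b/+ replicate 1 or without Bai1tm2b/tm2b replicate 3, the count of genes past the threshold was 1 instead of 3.

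The neuronal markers moved with these genes. Their summed level was 15560 to 17601 CPM in Bai1tm2b/+ and 11391 to 12991 CPM in Bai1tm2b/tm2b at P22, and 7 of the 11 were lower and 0 higher past the adjusted p. Scaling to the geometric mean of these 11 markers, not to their sum, moved the median of all genes to 0.30. The log2 fold changes of Atp2b2, Atp1b1 and Atp2b3 were then -0.10, -0.01 and 0.04, and none of them passed. On that scale Atp1b3 alone of the 7 passed, at 0.38 (edgeR adjusted p = 0.00430), beside the median of 0.30 over all genes. The share of all genes that passed on that scale was not counted, so this call is not a result particular to Atp1b3. Hair cell markers went the opposite way, with sums of 237 to 258 CPM against 298 to 384 CPM and 4 of 10 markers higher. Central glia markers summed to 676 to 811 CPM against 944 to 1531 CPM. Since 7 of the markers that set the neuronal scale were themselves lower, this scaling cannot tell fewer neurons from less RNA per neuron. The part of the neuronal share in these genotype differences, and that of the other cell types, was not tested.

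The other 4 genes did not pass the test at P22. Atp1b3 was at 375, 381 and 368 CPM against 419, 388 and 391 CPM, a log2 fold change of 0.10 (SE 0.0539, edgeR adjusted p = 0.262), with the homozygous libraries all slightly above the controls. In all, 4 of the 7 genes, and 33.7% of all genes, did not overlap between the genotypes at P22. Atp2b1 differed by -0.09 (SE 0.0676) and Atp2b4 by 0.04 (SE 0.0972), with overlapping libraries (edgeR adjusted p = 0.436 and 0.844).

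Atp1b2 was decided by 1 library. Its P22 levels were 241, 536 and 221 CPM in Bai1tm2b/+ and 245, 322 and 247 CPM in Bai1tm2b/tm2b, so that replicate 2 of the controls was more than any other library and the other 2 controls were the lowest of the 6. The log2 fold change was -0.29 (SE 0.273, edgeR adjusted p = 0.531) and became 0.24 without that replicate (edgeR adjusted p = 0.180). The same library stood apart in 5 of 7 marker genes of the stria vascularis, the secretory epithelium in which Atp1b2 is known to serve the sodium pump of marginal cells. Dct, a melanocyte enzyme of its intermediate cells, was at 267 CPM there and at 0.922 to 1.99 CPM in the other 5 libraries. Kcne1 and Kcnq1, which form the potassium channel of the marginal cells, were at 59.7 and 37.6 CPM there, against 0.461 to 1.06 CPM and 3.25 to 6.01 CPM elsewhere, and Esrrb, a nuclear receptor of the same cells, was at 92.2 against 16.1 to 25.1 CPM. The other 3 stria markers differed less: Slc12a2 was highest in that library, at 509 CPM against 311 to 354 CPM, whereas Kcnj10, at 224 CPM, lay within the 177 to 250 CPM of the others. Cldn11, at 290 CPM there, was below all 3 homozygotes, at 317 to 466 CPM. Summed over the 7 stria markers, that library had 1479 CPM, the other controls had 787 and 830 CPM, and the homozygotes 871 to 1094 CPM. In the TPM libraries at P7 as well, the library with the highest stria sum, Bai1tm2b/+ replicate 3 with 861 TPM where the others had 429 to 543, had the highest Atp1b2 level, 191 against 153 to 178 TPM. The P7 libraries in counts did not follow this: Bai1tm2b/+ replicate 6 had the lowest Atp1b2 level, 258 CPM, at a stria sum of 875 CPM, and Bai1tm2b/tm2b replicate 6 had 326 CPM at the lowest sum, 691 CPM. The part of stria tissue in the level of Atp1b2 was not tested beyond leaving the P22 library out.

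**Figure D3:**
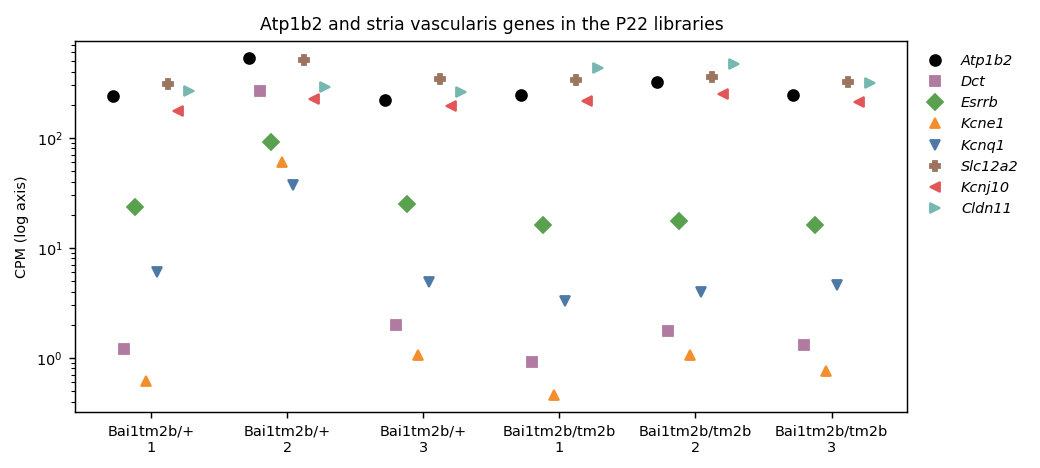
Levels of Atp1b2 (black circles) and of the 7 stria vascularis markers in the 6 libraries of P22, in CPM on a log axis, with 1 point per library. Atp1b2 and 5 of the 7 markers are highest in Bai1tm2b/+ replicate 2, where Dct is at 267 CPM against at most 1.99 CPM in the other libraries, and Kcnj10 and Cldn11 are not.

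The partner lists were split at P22. Of 9 sodium pump partners tested, 2 were higher and 1 lower in Bai1tm2b/tm2b, with Fxyd1 higher by 0.43 on the log2 scale (edgeR adjusted p = 0.00560). Of 19 calcium genes tested, 3 were higher and 5 lower, where 5.04% and 7.28% of all genes were. The calcium buffer of outer hair cells, oncomodulin (Ocm), was higher by 0.70, the calcium store pump Atp2a3 by 0.54 and the exchanger Slc24a3 by 0.48, while Calb2 fell by 0.54 (edgeR adjusted p = 5.47e-04, 0.00990, 0.00731 and 0.00292). The other 4 that were lower had log2 fold changes from -0.45 to -0.25. The medians were 0.14 over the sodium pump partners and -0.01 over the calcium genes. For shares within the families at P22 an exact permutation test of 3 against 3 libraries cannot go below p = 0.1. Atp1b3 took 12.6% of the beta subunit level in Bai1tm2b/+ and 15.9% in Bai1tm2b/tm2b. Of the calcium pump level, Atp2b2 took 35.3% and 32.7% and Atp2b4 took 1.22% and 1.51%. All 3 were at that smallest exact permutation p, with adjusted p = 0.233.

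At P7, the libraries in counts gave 0 of 7 genes past an adjusted p of 0.05, as for 0% of the 16026 genes tested. At an unadjusted edgeR p under 0.05 there were 2 of the 7 genes and 763 of all genes, and DESeq2 also called 0 of the 7. Atp2b4 was at 25.6, 24.8 and 25.9 CPM in Bai1tm2b/+ and 34.9, 31.6 and 28.3 CPM in Bai1tm2b/tm2b, a log2 fold change of 0.34 (SE 0.102, edgeR adjusted p = 0.894). Atp1b3 was at 176, 195 and 185 CPM against 166, 153 and 163 CPM, a difference of -0.18 (SE 0.0733, edgeR adjusted p = 0.894). In those 2 genes the genotypes did not overlap, as in 10.7% of all genes.

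The largest estimate at P7 in counts was that of Atp2b3, -0.62, with the widest error (SE 0.294, edgeR adjusted p = 0.894). It rested on Bai1tm2b/+ replicate 6, at 31.7 CPM the highest of the 6 libraries, without which it was -0.23. That library also had the highest sum of neuronal markers, 2795 CPM, where the other 5 had 1049 to 1661 CPM. The remaining 4 genes had log2 fold changes between -0.13 and 0.14.

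The P7 libraries in TPM gave a different picture, in which 1 of the 7 genes, Atp2b1, was higher in Bai1tm2b/tm2b past an adjusted p of 0.05 in limma. Of the 11688 genes tested, 7.77% passed in either direction. By the stricter rule 0 of the 7 and 0.796% of all genes passed. Atp2b1 was at 46.4, 43.1, 38.7 and 38.4 TPM in Bai1tm2b/+ and at 49.2, 55.3, 51.8 and 50.4 TPM in Bai1tm2b/tm2b. All 4 homozygous libraries were above all 4 controls, the 1 gene of the 7 without overlap, where 18.2% of all genes had none. The log2 fold change of TPM plus 1 was 0.31 (SE 0.0719, limma adjusted p = 0.0447). The call held in 2 of the 8 fits that left out a library, with adjusted p from 0.0208 to 0.124, and in counts the same gene was at 0.04.

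Atp2b2 and Atp2b3 leaned the same way without passing. Atp2b2 was at 21.7, 23.1, 18.3 and 16.5 TPM in Bai1tm2b/+ and at 20.7, 33.4, 32.3 and 29.9 TPM in Bai1tm2b/tm2b (log2 fold change 0.51, SE 0.150, limma adjusted p = 0.0566). Atp2b3 was at 5.92, 7.02, 5.38 and 5.49 TPM against 5.90, 9.54, 10.8 and 9.33 TPM (log2 fold change 0.49, SE 0.158, limma adjusted p = 0.0690). In both genes Bai1tm2b/tm2b replicate 1 lay among the controls and the other 3 homozygous libraries above them, and without that library both passed, at 0.66 and 0.65 (limma adjusted p = 0.0106 and 0.0107). The deposited values of Atp2b3 and Atp2b4 were whole numbers from 5 to 11, so that rounding alone is a sizeable step for them.

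In these libraries the difference between genotypes moved with transcript length. Across 11292 genes the Spearman correlation of the log2 fold change with the length of the longest transcript was 0.568, a description over genes, which are not independent. For the genotype difference at P22 it was -0.213 over 14843 genes, so longer genes leaned lower there. At P7 in counts it was 0.0697 over 15402 genes. No length trend was removed from the comparisons in counts. The 3045 genes with a length in the range of the Atp2b genes had a median of 0.15. With the trend on length and GC content removed, Atp2b1 was at 0.22 (limma adjusted p = 0.144). The neuronal markers summed to 1631 to 2677 TPM in Bai1tm2b/+ and 2024 to 2828 TPM in Bai1tm2b/tm2b. Scaled to the geometric mean of these markers, Atp2b1 was at 0.01. Atp1b1, Atp1b2, Atp1b3 and Atp2b4 were at 0.06, 0.04, -0.13 and 0.20 and did not pass (limma adjusted p from 0.232 to 0.746).

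**Figure D4:**
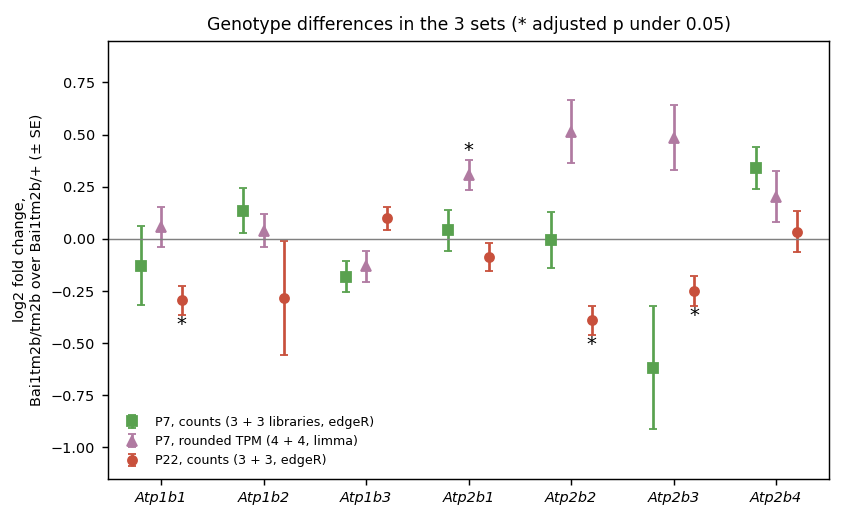
Log2 fold change of Bai1tm2b/tm2b over Bai1tm2b/+ for the 7 genes, with bars of 1 SE, at P7 in counts (green squares, edgeR), at P7 in TPM (purple triangles, limma) and at P22 in counts (red circles, edgeR). Stars mark an adjusted p under 0.05: Atp1b1, Atp2b2 and Atp2b3 lie below 0 at P22, and Atp2b1 lies at 0.31 at P7 in TPM.

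At P7, 0 of 9 sodium pump partners and 0 of 19 calcium genes passed in counts, with 1 and 2 of them at an unadjusted p under 0.05. In TPM 0 of 9 and 1 of 14 passed, the latter being Slc24a2, higher by 0.78 (limma adjusted p = 0.0452).

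Whether the genotype difference itself changed with age was tested as an interaction in the 12 libraries in counts. It was past an adjusted p of 0.05 for 0 of the 7 genes and for 0.0306% of all genes, which is 5 genes. At an unadjusted edgeR p under 0.05 there were 2 of the 7 and 1666 of all genes. These 2 were Atp1b3, whose difference was 0.30 more at P22 than at P7 (SE 0.0960, edgeR adjusted p = 0.325), and Atp2b4, at -0.29 (SE 0.123, edgeR adjusted p = 0.450). For Atp2b2, lower at P22 and level at P7 in counts, the change was -0.37 (SE 0.178, edgeR adjusted p = 0.503), so the genotype effect was not shown to differ between the ages.

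Genes whose levels followed those of the pumps from library to library were sought after the mean of each age, set and genotype had been taken off. Over the 20 libraries and 11655 genes, Atp2b3 was most like Cadm3 (Pearson r = 0.979), Vamp1 (0.970) and Syt2 (0.965), a neuronal adhesion molecule and proteins of the synaptic vesicle. Atp2b2 was most like Dlg2 (0.977), a scaffold of the postsynaptic density, Snap91 (0.962) and Prepl (0.959). Atp1b1 was most like Lrp11 (0.957), Ube2ql1 (0.956) and Hsp90aa1 (0.955). These libraries share their dissection and depth with each gene, and the values are a description.

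Atp1b2 was most like Dclk1 (0.935), Igf1 (0.932) and Lrp2 (0.910), a receptor of marginal cells. All 3 stood apart in P22 Bai1tm2b/+ replicate 2. There Lrp2 was at 316 CPM, against 18.6 to 41.2 CPM in the other 5 libraries of that age. Dclk1 was at 174 against 36.6 to 50.2 CPM and Igf1 at 55.2 against 21.0 to 29.4 CPM. How far these r values rest on that 1 library was not tested. Atp2b1 was most like Cmtm4 (0.937), Atf6 (0.898) and Ncoa1 (0.897), and Atp1b3 most like Kdelr3 (0.895), Tmem134 (0.880) and 3110079O15Rik (0.859). Atp2b4 had the lowest values, with Zfp9 (0.858), Gm11837 (0.828) and Plagl1 (0.809). Among the 7 genes themselves, r was 0.806 between Atp1b1 and Atp2b2, 0.772 between Atp2b2 and Atp2b3 and 0.621 between Atp1b1 and Atp2b3, and between -0.45 and 0.50 for every other pair.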

How the data were processed

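RNA from 20 pooled libraries was sequenced by the authors with paired-end reads. Per the labels and the study's methods, reads were processed with an nf-core RNA pipeline (STAR, Salmon) on mm10, and versions are not given in the sources used here. The authors deposited Salmon's estimated counts per gene for 12 libraries, which were rounded to whole numbers here. For P7 replicates 1 to 4 they deposited whole numbers without a stated unit, used here as a score that behaves as rounded TPM. Each library is 1 sample, and p-values measure the spread between pools.

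Counts were tested with edgeR 4.0.16 (quasi-likelihood, TMM scaling, filterByExpr) in R 4.3.3, fitted separately for each comparison over all genes, with age and genotype together for the age and interaction tests. DESeq2 1.42.0 was an alternative. TPM values were scaled by TMM, kept at a mean of at least 5 and tested with limma 3.58.1 on log2(TPM + 1), which understates changes of low genes. P-values were Benjamini-Hochberg adjusted over all genes. The stricter rule took adjusted p under 0.05, a log2 fold change over 0.5 in size and an SE under 0.5. CPM was computed with TMM factors of the 12 count libraries. Shares used exon lengths of the GENCODE mm10 annotation and two-sided exact permutation tests. Scripts were tested on simulated data. The alternatives were other scalings, filters, pseudocounts, lengths, a replicate block and leaving out each library, and removal of a length and GC trend and neuron scaling of the TPM values were added after seeing the data.

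All 7 genes are given, and up to 6 genes of the partner lists per comparison, from those with the smallest p. The members and lists were chosen with earlier results of these data known. The numbers of the replicates do not pair the libraries: deviations of same-numbered libraries correlated between -0.227 and 0.085.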

Additional observations from a re-analysis of the deposited data

Results flagged for a closer look

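Atp1b3 was the 1 pump gene in which all homozygous libraries lay above all controls at P22 (log2 fold change 0.10) and all below them at P7 in counts (-0.18). The difference between the ages was tested as an interaction in edgeR and did not pass after adjustment (0.30, SE 0.0960, edgeR adjusted p = 0.325). In the P7 libraries in TPM the estimate was -0.13 with overlapping genotypes.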

How the results depend on the processing

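With age, the 4 rises and 2 falls were past the threshold with DESeq2 and with any 1 library left out, and Atp1b2 fell as well without P22 Bai1tm2b/+ replicate 2. Scaled to neuron markers, only Atp2b3 still rose with age, and Atp1b1, Atp2b2, Atp1b3 and Atp1b2 fell past the threshold. The P7 count libraries and the interaction gave 0 of 7 genes under every alternative run. With 1 library left out, at P22 the count of 3 genes became 1 to 3, and in TPM at P7 the count of 1 became 0 to 3. Scaled to neuron markers the P22 count was 1, with the median of all genes at 0.30. In TPM it was 3 without TMM scaling, which moved the median of all genes to 0.12, and 0 with a mean of at least 1 TPM, with the length and GC trend removed and scaled to neuron markers. With the replicate block, whose numbers do not pair the libraries (0 of 3 and 0 of 4 P7 libraries and 1 of 3 at P22 were most like their own number), it was 0 as well, with Atp2b1 at 0.31 (limma adjusted p = 0.117), and the block moved no other count. The cause of these changes was not tested.

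Directions turned as follows. Scaled to neuron markers, the log2 fold changes were 0.20 (Atp2b1) and 0.0356 (Atp2b3) at P22, where the median of all genes was 0.30. They were 0.14 (Atp1b1), 0.11 (Atp1b3) and 0.28 (Atp2b2) at P7 in counts, with a median of 0.27. They were -0.24 (Atp1b1), -0.26 (Atp1b2) and -0.0536 (Atp2b4) in TPM, with a median of -0.27, and -0.41 (Atp1b1), -1.21 (Atp1b3) and -0.49 (Atp2b2) with age, with a median of -2.43. With the length and GC trend removed, Atp1b2 was at -0.0356 and Atp2b4 at -0.0460 in TPM.

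With 1 library left out, Atp1b2 ranged from -0.51 to 0.24 and Atp2b4 from -0.0223 to 0.0818 at P22. At P7 in counts Atp1b1 ranged from -0.24 to 0.0550, Atp2b1 from -0.0281 to 0.11 and Atp2b2 from -0.0846 to 0.11, and in TPM Atp1b1 from -0.00561 to 0.12 and Atp1b2 from -0.00607 to 0.11. With age Atp1b2 ranged from -0.32 to 0.0551, and in the interaction Atp1b2 from -0.63 to 0.12 and Atp2b3 from -0.0107 to 0.60. The share of Atp1b2 at P22 differed between genotypes by -1.40 to 1.78 percentage points.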
